A study of Homo sapiens with 9 samples.

Results

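The 10 genes described here encode members of the BCL2 family, and they were taken by gene symbol from the array's probe annotation: BIK, PMAIP1, BMF, BBC3 and BCL2L11 (activators of cell death), BAX and BAK1 (pore-forming effectors), and BCL2, BCL2L1 and MCL1 (survival proteins). All 10 were among the 12437 genes tested, and 23 probes named one of them. RNA came from MDA-MB231, an established human breast cancer cell line that is negative for hormone receptors and mesenchymal in appearance. The cells carried either an empty retroviral vector, the same kind of vector expressing RAI2, or one expressing a variant labelled RAI2-4A, with 3 Illumina bead arrays in each group. All 3 groups were infected with virus from packaging cells and selected with 2 µg/ml puromycin for 4 days. The sources do not state what the label 4A stands for, or that replicates were separate cultures, so p-values cover only the spread between these arrays. In bulk RNA, a change in the number of cells expressing a gene and a change in transcript per cell cannot be told apart.

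BCL2 family proteins decide whether the outer mitochondrial membrane stays intact. Survival proteins hold the effectors in check, and BH3-only proteins, which share a single short helix with the rest of the family, release or activate the effectors, so that cytochrome c escapes and caspases are switched on. CtBP1 and CtBP2 are corepressors brought to DNA by factors such as ZEB1 and ZEB2, and RAI2 is reported to bind them. Human BIK has been reported as a CtBP-repressed gene, and PMAIP1 (also called NOXA) and BAX were reported to be higher in mouse fibroblasts that lack CtBP.

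The RAI2 probe followed the labels. It read 86.3 to 95.8 on the vector arrays, below the background threshold on all 3, 559 to 632 on the RAI2 arrays and 955 to 1158 on the RAI2-4A arrays, in deposited intensity units, which are linear. The number of probes above background was 20029 to 22677 per array, at threshold intensities of 99.8 to 104. All 6 markers chosen for the line (VIM, CD44, AXL, ANXA1, MSN and CAV1) were above background on all 9 arrays. Of 6 luminal breast markers, ESR1, PGR and FOXA1 did not reach the detection filter, while EPCAM and ERBB3 were above background on 9 arrays and GATA3 on 8. The first vector array and the second arrays of both RAI2 and RAI2-4A (replicates 1, 2 and 2) deviated together from their group means across genes (residual correlations of 0.48, 0.54 and 0.44 between pairs of these arrays). Such correlations were not limited to them, with 0.47 for vector replicate 2 with RAI2-4A replicate 3 and 0.44 for the first RAI2 and RAI2-4A arrays. The main values moved by the 3 arrays named first, called the arrays that stood apart, are also given with those 3 removed.

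At an adjusted p of 0.05, 0 of the 10 genes passed in each of the 3 comparisons. Of all genes tested, 0.418% passed between RAI2 and vector, 0.0884% between RAI2-4A and vector and 0.378% between RAI2 and RAI2-4A (limma, Benjamini-Hochberg over all genes). On the brightest probe of each gene, PMAIP1 read higher in RAI2 than in vector cells by 0.36 log2 units, without overlap between arrays. BIK also read higher in RAI2 than in vector cells without overlap, but it was above background on 0 vector arrays, so that difference has only a lower bound. BAK1 was lower in RAI2 than in RAI2-4A cells by a log2 difference of -0.29, again without overlap. The survival genes BCL2 and BCL2L1 differed by at most 0.04 log2 units between any 2 groups on their brightest probes. Log2 differences are taken after background correction with an offset of 50, which understates the change of dim probes.

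**Figure D1:**
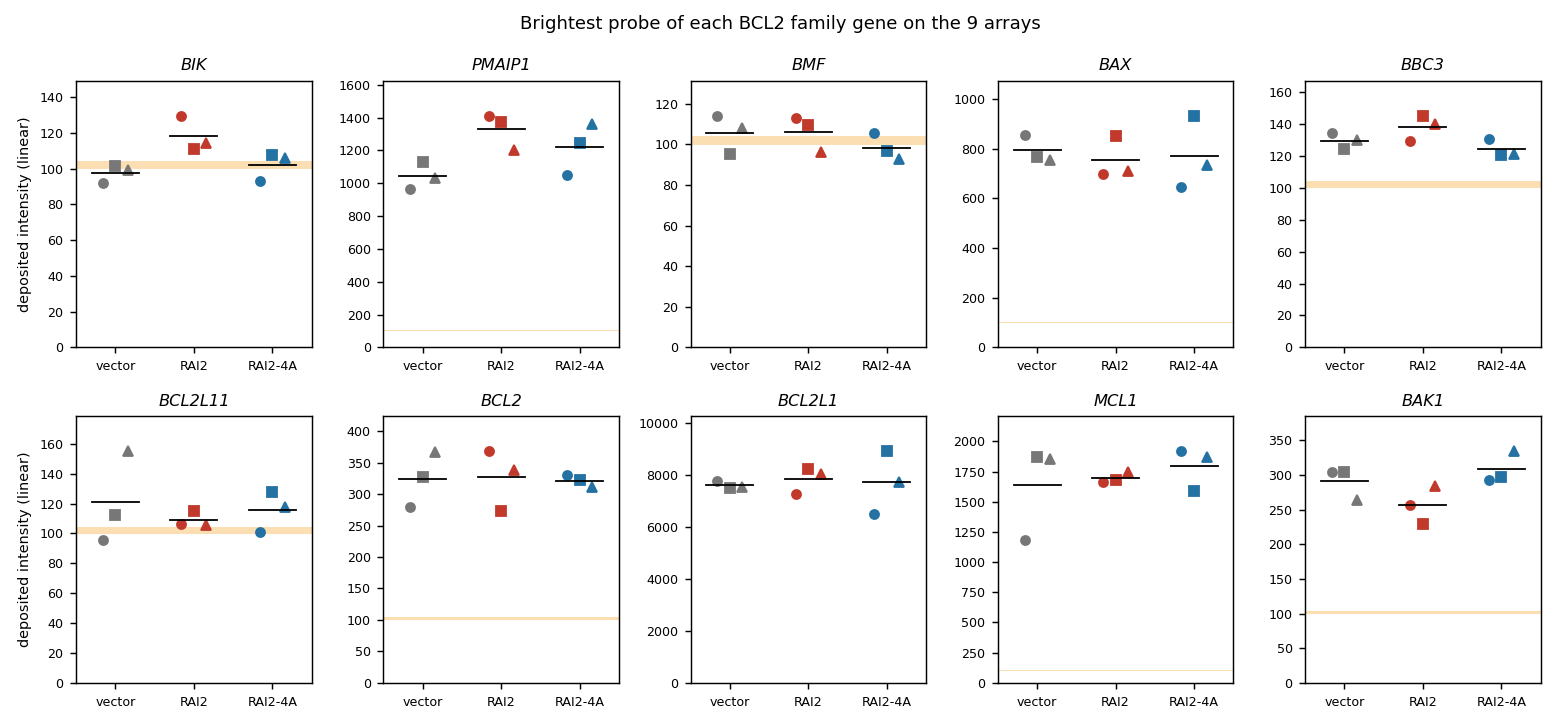
Deposited intensity (linear axis from 0) of the brightest probe of each of the 10 genes on 9 arrays; circles, squares and triangles are replicates 1, 2 and 3, black bars are group means of 3 arrays, and the orange band spans the background thresholds of the arrays (99.8 to 104). BIK sits at the band, PMAIP1 is well above it with RAI2 arrays at 1203 to 1411 against vector arrays at 966 to 1128, and vector replicate 1 is the low point of MCL1 at 1183.

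PMAIP1 encodes NOXA, a small BH3-only protein that binds MCL1. Its brighter probe (ILMN_2098446) read 966, 1128 and 1032 on the vector arrays, 1411, 1373 and 1203 on the RAI2 arrays, and 1052, 1243 and 1363 on the RAI2-4A arrays. Every RAI2 array was above every vector array, and the RAI2-4A arrays spread across both. The difference between RAI2 and vector was 0.36 log2 units (SE 0.12, 95% interval 0.09 to 0.62), a 1.28-fold change that did not pass over all genes (limma, adjusted p = 0.525). The second PMAIP1 probe (ILMN_1689525), annotated to the same transcript, read 254, 311 and 334 in vector, 410, 394 and 385 in RAI2, and 331, 270 and 372 in RAI2-4A cells. On this probe RAI2 arrays overlapped neither other group, with differences of 0.44 from vector (SE 0.15) and 0.33 from RAI2-4A (SE 0.15). Neither difference passed over all kept probes (limma, adjusted p = 0.626 and 0.999975). On the brighter probe RAI2 and RAI2-4A arrays overlapped, with a RAI2 minus RAI2-4A difference of 0.13 (95% interval -0.13 to 0.40). For RAI2-4A against vector, the brighter probe differed by 0.23 (95% interval -0.04 to 0.49) and the second by 0.12 (95% interval -0.21 to 0.44). Without the 3 arrays that stood apart, the brighter probe's difference between RAI2 and vector was 0.28 (95% interval -0.04 to 0.59) and the second probe's was 0.32 (95% interval 0.06 to 0.59). The RAI2 minus RAI2-4A differences were then 0.12 on the brighter probe and 0.19 on the second (95% interval -0.07 to 0.46).

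BIK, a BH3-only protein that resides largely at the endoplasmic reticulum, was close to background throughout. Its only probe (ILMN_1770505) read 91.8, 101 and 99.2 on the vector arrays, 130, 111 and 114 on the RAI2 arrays, and 93.3, 107 and 106 on the RAI2-4A arrays. It was above background on 0 vector arrays, on all 3 RAI2 arrays and on 2 of 3 RAI2-4A arrays, so only a lower bound on its fold can be given. On the means of these arrays, BIK was at least 1.19-fold higher in RAI2 than in vector cells (limma, adjusted p = 0.486). The bound takes, per vector array, the higher of the probe's own value and the lowest value above background. It does not allow for the spread between arrays, so it is no established minimum increase. Against RAI2-4A the difference was 0.27 (95% interval 0.02 to 0.52). RAI2 arrays lay above all arrays of both other groups. With the background set at each array's mode, which spreads dim probes out, BIK still did not pass against vector (limma, adjusted p = 0.216). Without RAI2 replicate 1, the highest array, the BIK intervals against vector and against RAI2-4A both included 0.

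For RAI2 minus vector the 95% intervals of PMAIP1 and BIK left out 0, where 5.9% of all genes tested had such an interval. The same 2 genes were without overlap between the RAI2 and vector arrays (10.1% of all genes tested). BIK had reached the detection filter only through RAI2 and RAI2-4A arrays, so nothing is read from its place in these counts. Of the 10, 7 had a difference above 0 and the median was 0.02, and over all genes 55.3% were above 0 with a median of 0.02. The genes whose 9 values lay nearest to those of BIK, after each gene was centred on its vector mean, were, with vector values of BIK below background, GBP4, GTF2F2 and ZBTB11 (root mean square log2 difference of 0.07, 0.07 and 0.08 over 9 arrays). For PMAIP1 they were UAP1, PGCKA1 and again GBP4 (0.08, 0.08 and 0.09). GBP4, an interferon-induced guanylate-binding protein, differed by 0.36 between RAI2 and vector.

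The remaining BH3-only genes showed no difference past the threshold. BBC3, which encodes PUMA, read 134, 124 and 130 in vector, 129, 145 and 140 in RAI2, and 130, 120 and 121 in RAI2-4A cells, on a single probe, above background on all 9 arrays but near it. The BBC3 groups overlapped in all 3 comparisons, and the intervals ran from -0.12 to 0.33 for RAI2 and from -0.30 to 0.14 for RAI2-4A, each against vector. Between RAI2 and RAI2-4A the BBC3 difference was 0.19 (95% interval -0.04 to 0.41), and with the background at the mode it was 0.36 (95% interval 0.02 to 0.70), short of the threshold (limma, adjusted p = 0.846). BCL2L11, which encodes BIM, read 95.5, 112 and 155 in vector, 106, 115 and 106 in RAI2, and 101, 128 and 118 in RAI2-4A cells. Vector replicate 3 was the highest of the 9 arrays, and without it the RAI2 minus vector difference turned from -0.15 to 0.09. Without the 3 arrays that stood apart that difference was -0.39 (95% interval -0.75 to -0.03), which did not pass when all kept probes were fitted separately (limma, adjusted p = 0.686). BMF, a BH3-only protein linked to the cytoskeleton, read 92.6 to 114 on its brightest probe, above background on 5 of 9 arrays, and its difference between RAI2 and vector was 0.00 (95% interval -0.27 to 0.27). The other probes of BMF (3) and BCL2L11 (2) were above background on at most 1 array each.

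**Figure D2:**
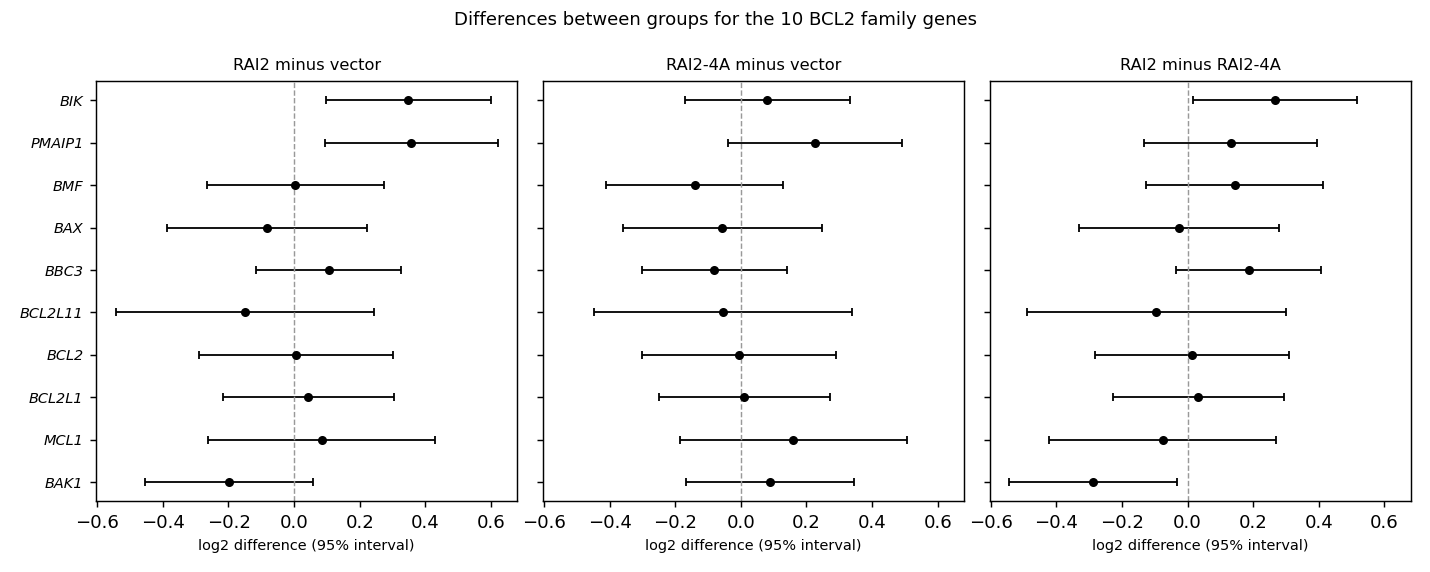
Log2 differences (points) with 95% intervals from limma (bars) for the 10 genes in the 3 comparisons; the dashed line marks 0. In the RAI2 minus vector panel the PMAIP1 interval (0.09 to 0.62) lies above 0, as does that of BIK, which is fitted against vector arrays below background and is no measured size. In the RAI2 minus RAI2-4A panel those of BIK (0.02 to 0.52) and BAK1 (-0.55 to -0.03) leave out 0, and none does in the RAI2-4A minus vector panel.

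BAK1, an effector that resides in the mitochondrial membrane, read 304, 304 and 264 on the vector arrays, 257, 230 and 284 on the RAI2 arrays, and 293, 297 and 334 on the RAI2-4A arrays. All RAI2 arrays were below all RAI2-4A arrays, while the vector arrays overlapped both. The RAI2 minus RAI2-4A difference was -0.29 (SE 0.12, 95% interval -0.55 to -0.03) and did not pass (limma, adjusted p = 0.940). It was -0.20 without RAI2 replicate 2, and with the 3 arrays that stood apart removed it was -0.23 with an interval that included 0 (-0.51 to 0.05). The interval left out 0 in 6 of 9 fits that each left out 1 array. RAI2 differed from vector by -0.20 (95% interval -0.46 to 0.06), by -0.12 without RAI2 replicate 2 and by -0.08 with those 3 arrays removed. RAI2-4A differed from vector by 0.09 (95% interval -0.17 to 0.35).

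BAX, the second effector, moves from the cytosol to mitochondria during apoptosis. Its brightest probe (ILMN_2321064) read 856, 768 and 754 in vector, 697, 850 and 709 in RAI2, and 646, 932 and 736 in RAI2-4A cells. Every group spanned much of the same range, with differences from vector of -0.08 for RAI2 (95% interval -0.39 to 0.22) and -0.06 for RAI2-4A (95% interval -0.36 to 0.25). They were -0.12 and -0.15 with the 3 arrays that stood apart removed. The last BAX probe was above background on 2 arrays.

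Among the survival genes, BCL2L1, which encodes BCL-XL, was bright and even. Its brightest probe (ILMN_1654118) read 7770, 7506 and 7562 in vector, 7293, 8238 and 8033 in RAI2, and 6512, 8931 and 7749 in RAI2-4A cells. The differences from vector were 0.04 (95% interval -0.22 to 0.30) and 0.01 (95% interval -0.25 to 0.27), or 0.02 and -0.09 with the 3 arrays that stood apart removed. BCL2 read 280, 326 and 367 in vector, 368, 273 and 339 in RAI2, and 330, 322 and 312 in RAI2-4A cells on its brightest probe (ILMN_2246956), and the groups overlapped. Its differences from vector were 0.01 (95% interval -0.29 to 0.30) and -0.01 (95% interval -0.30 to 0.29), or 0.03 and -0.12 with those 3 arrays removed. The RAI2 minus RAI2-4A differences were then 0.15 for BCL2 and 0.11 for BCL2L1, with intervals that included 0. A second BCL2 probe for the same transcript (ILMN_1801119) read 211 to 270, with a RAI2 minus vector difference of 0.05, and the pair of probes annotated to the other BCL2 transcript were above background on 4 and 1 arrays. MCL1, the short-lived survival protein that NOXA binds, read 1183, 1870 and 1855 in vector, 1661, 1683 and 1743 in RAI2, and 1918, 1587 and 1872 in RAI2-4A cells. Vector replicate 1 was far below the other 8 arrays, and without it the RAI2 minus vector difference moved from 0.08 to -0.14 and that of RAI2-4A from 0.16 to -0.06.

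Between RAI2-4A and vector none of the 10 intervals left out 0 (4% of all genes tested had such an interval), and none of the genes was without overlap (7.99% of all genes). The median difference of the 10 was 0.00, with 5 above and 5 below 0, and no interval reached beyond 0.51 in either direction. Between RAI2 and RAI2-4A, the intervals of BIK and BAK1 left out 0, where 4.82% of all genes tested had such an interval, and these 2 genes were without overlap, where 11.3% of all genes were. BIK had reached the detection filter mainly through its RAI2 arrays, so nothing is read from its place in these counts either. With no background correction its interval in this comparison included 0 (-0.01 to 0.42). No interval of the 10 in that comparison reached beyond 0.55. The RAI2 and RAI2-4A comparisons with vector share the 3 vector arrays. The RAI2 probe itself read higher in RAI2-4A than in RAI2 cells, by a RAI2 minus RAI2-4A difference of -0.85 log2 units (adjusted p = 0.00279 by limma), so both forms were not compared at matched transcript levels.

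For MCL1, BCL2L1 and BAX a second, dimmer probe is also set out, because of the values it gave. The BAX pair gave RAI2 minus vector differences of -0.08 on the brighter and -0.06 on the dimmer probe. The dimmer BAX probe was above background on 4 arrays, with a 95% interval of -0.86 to 0.73, so nothing is read from the closeness of the pair. The dimmer MCL1 probe (ILMN_1756806), annotated to the same transcript as the brighter, read 271, 172 and 179 in vector, 155, 185 and 153 in RAI2, and 134, 164 and 149 in RAI2-4A cells. All RAI2-4A arrays lay below all vector arrays on it, with a difference of -0.52 (95% interval -0.93 to -0.10), against 0.16 on the brighter probe, which missed the threshold (adjusted p = 0.993 by limma over all kept probes). The dimmer BCL2L1 probe (ILMN_1742410) read 407, 119 and 123 in vector, 122, 148 and 105 in RAI2, and 125, 177 and 128 in RAI2-4A cells. The dimmer BAX probe (ILMN_1683300), annotated to another transcript than the brightest, read 219, 95.7 and 90.8 in vector, 125, 132 and 99.8 in RAI2, and 101, 148 and 100.1 in RAI2-4A cells.

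On all 3 of these dimmer probes the highest array of each group was the one that stood apart. The same held for the brighter BAX and BCL2L1 probes, so for 5 of the 16 kept probes of the 10 genes, and for 9.4% of the 16389 kept probes of all genes. Without these 3 arrays the RAI2 minus vector difference of the dimmer BCL2L1 probe went from -0.62 to -0.12, that of the dimmer BAX probe from -0.06 to 0.33 (95% interval 0.03 to 0.63, limma, adjusted p = 0.683) and that of the dimmer MCL1 probe from -0.35 to -0.22. The RAI2-4A minus vector difference of the dimmer MCL1 probe went from -0.52 to -0.37. Its interval still left out 0 (95% interval -0.63 to -0.11, limma, adjusted p = 0.654). No probe sequence was used here, so where in each transcript the probes lie is not given.

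**Figure D3:**
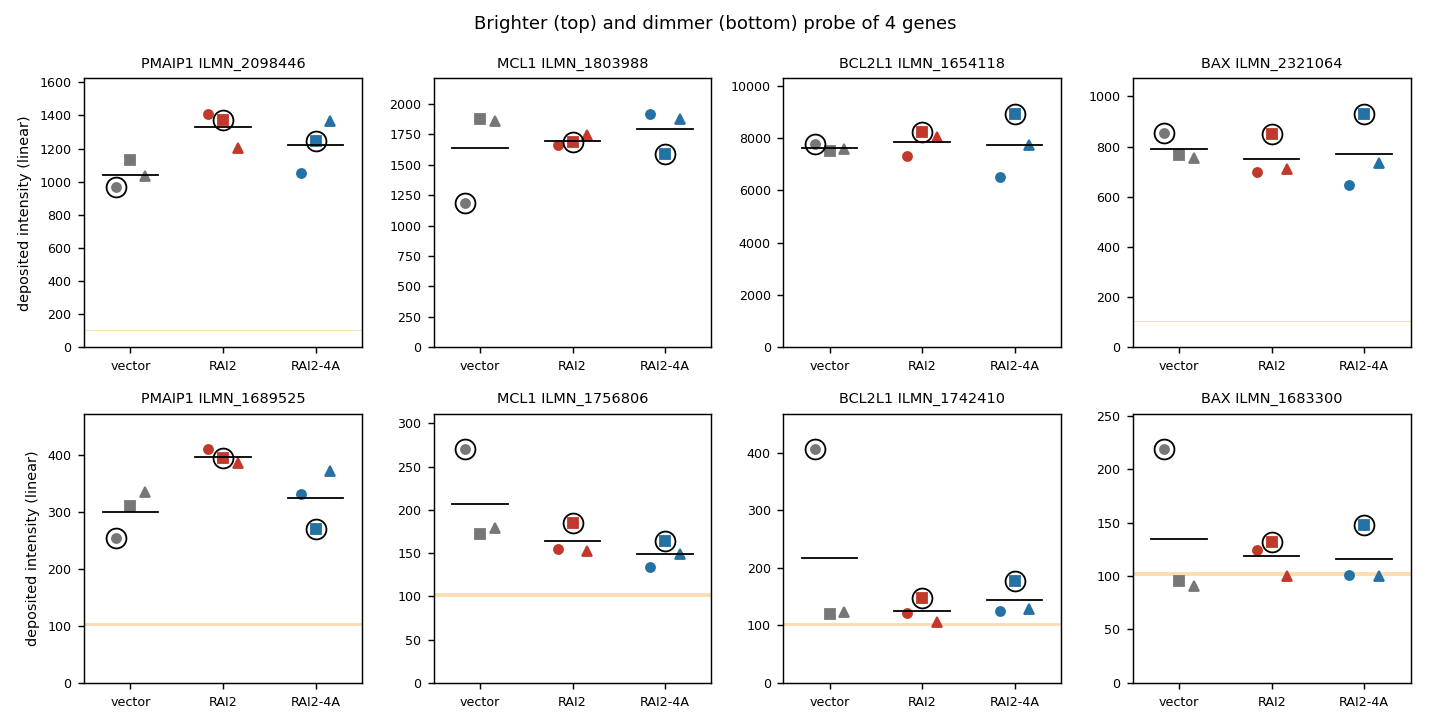
Deposited intensity (linear axes from 0) of the brighter (top row) and a dimmer (bottom row) probe of PMAIP1, MCL1, BCL2L1 and BAX; circles, squares and triangles are replicates 1, 2 and 3, bars are means of 3 arrays, rings mark the 3 arrays that stood apart, and the orange band is the background threshold. The ringed arrays are the highest of their group on the dimmer MCL1, BCL2L1 and BAX probes (vector replicate 1 at 271, 407 and 219), whereas on both PMAIP1 probes the RAI2 arrays lie above the vector arrays.

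RefSeq promoter windows (GRCh38.p14) were matched for 8 of the 10 genes by symbol, with 10 entries in all. BIK and MCL1 had no matched window, so their promoters were not searched. The 250 bases before each start were searched on both strands for CACCTG, the E-box letters that ZEB factors bind, and for GGGCGG, the letters of an SP1 box. Neither motif contains the other. CACCTG was found for 2 genes (BMF and BAX), where 17.5% of all 35116 windows hold it, and GGGCGG for 5 genes, where 42.6% of all windows hold it. BMF and BCL2L1 had 2 windows each, so counts of genes are not in the unit of these shares. PMAIP1, with the largest difference of a gene well above background, held 4 GGGCGG matches and no CACCTG. BCL2L11, whose groups overlapped on its brightest probe, held 3 GGGCGG matches, and a link between matches and differences was not tested. BAX held 1 of each, and BAK1, which was lower in RAI2 than in RAI2-4A cells, held 2 GGGCGG matches. The windows of PMAIP1, BAX and BAK1 are printed 5′ to 3′ on the gene's strand, with matches to GGGCGG or CACCTG and their reverse complements in capitals. The windows are chr18:59899746-59899995 (plus strand) for PMAIP1, chr19:48954625-48954874 (plus strand) for BAX and chr6:33580277-33580526 (minus strand) for BAK1.
PMAIP1: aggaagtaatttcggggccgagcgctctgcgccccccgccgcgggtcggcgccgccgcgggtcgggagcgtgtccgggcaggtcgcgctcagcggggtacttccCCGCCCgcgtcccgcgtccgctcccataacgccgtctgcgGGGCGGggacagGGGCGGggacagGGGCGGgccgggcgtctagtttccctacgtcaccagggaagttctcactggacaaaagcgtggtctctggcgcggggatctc
BAX: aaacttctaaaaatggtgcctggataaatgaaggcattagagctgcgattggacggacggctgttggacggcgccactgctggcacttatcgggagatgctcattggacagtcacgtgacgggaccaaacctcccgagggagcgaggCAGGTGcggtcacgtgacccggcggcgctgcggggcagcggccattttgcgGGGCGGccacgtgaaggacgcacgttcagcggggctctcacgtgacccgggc
BAK1: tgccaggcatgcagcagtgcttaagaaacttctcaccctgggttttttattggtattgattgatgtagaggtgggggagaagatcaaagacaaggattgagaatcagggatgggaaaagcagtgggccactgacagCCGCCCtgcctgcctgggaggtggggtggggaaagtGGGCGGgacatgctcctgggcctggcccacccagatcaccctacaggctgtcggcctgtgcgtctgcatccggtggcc
A match describes the letters of the window and not a bound site.

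The rest of the pathway was followed in 7 further lists that hold 88 different genes, of which 68 were tested. None of the 68 passed in any comparison. For RAI2 against vector, 6 of the 68 intervals left out 0 (8.82%), for RAI2-4A against vector 2 (2.94%) and for RAI2 against RAI2-4A 4 (5.88%), beside the shares over all genes given above. The median differences were 0.04, 0.03 and 0.03.

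Of 12 other BCL2 family genes 9 were tested and 0 passed in either direction in any comparison. The mitophagy receptors BNIP3 and BNIP3L, its brightest members, differed by 0.05 and 0.18 between RAI2 and vector, and BID, which links death receptors to mitochondria, by 0.16. Of 15 genes of the apoptosome, mitochondrial factors and caspases 12 were tested and 0 passed. The channel protein VDAC1 differed by 0.06 and DIABLO, which relieves caspase inhibition, by -0.03, and the differences of the 12 ranged from -0.17 to 0.17. Of 6 inhibitors of apoptosis 4 were tested and 0 passed, with 0.07 for BIRC2 and 0.00 for BIRC5, which encodes survivin. CFLAR, the caspase-8 inhibitor FLIP, belongs to this list and read 292 to 375 in vector, 386 to 445 in RAI2 and 389 to 440 in RAI2-4A cells. Both forms lay above vector without overlap, by 0.27 (95% interval 0.01 to 0.54) and 0.29 (95% interval 0.02 to 0.55). Without the 3 arrays that stood apart these CFLAR differences were 0.19 and 0.21, and both intervals included 0. Of 17 transcription factors that act on BCL2 family genes 13 were tested and 0 passed, with -0.03 for ATF4 and 0.13 for MYC. RELA, a subunit of NF-kappa-B, read 236, 102 and 104 in vector and 99.8 to 122 in RAI2 cells, and its difference of -0.34 rested on vector replicate 1, without which it was 0.13.

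Of 12 death receptor genes 9 were tested and 0 passed. TNFSF10, the death ligand TRAIL, nevertheless had the largest difference of the 68 and is named after its value was seen. It read 181, 222 and 213 on the vector arrays, 529, 371 and 328 on the RAI2 arrays, and 531, 232 and 285 on the RAI2-4A arrays, on 1 probe. Both RAI2 forms lay above vector without overlap, by 1.05 log2 units for RAI2 (SE 0.27, limma, adjusted p = 0.179) and 0.74 for RAI2-4A (SE 0.27, limma, adjusted p = 0.994), and they did not differ past the threshold from each other, with 0.32 (95% interval -0.26 to 0.89). With only RAI2 and vector in the fit, TNFSF10 passed (limma, adjusted p = 0.0291), and it also passed without RAI2-4A replicate 1 (limma, adjusted p = 0.0230), the highest RAI2-4A array. It did not pass against vector with any other single array left out (limma, adjusted p = 0.0818 to 0.810). Nor did it pass without the 3 arrays that stood apart (limma, adjusted p = 0.168). Without RAI2 replicate 1 its difference between RAI2 and vector was 0.84. Without RAI2-4A replicate 1, RAI2-4A differed from vector by 0.37, with an interval that included 0 (-0.06 to 0.79), and RAI2 from RAI2-4A by 0.69 (95% interval 0.26 to 1.12, limma, adjusted p = 0.444). The TRAIL receptor TNFRSF10B differed by 0.18 and TNFRSF10A by -0.04. TNFRSF21, a death receptor bright in these cells, read 6412 to 7023 in vector, 4813 to 5707 in RAI2 and 5526 to 6179 in RAI2-4A cells, below vector without overlap in both, by -0.30 (95% interval -0.53 to -0.07) and -0.17.

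CDKN1A, the cell cycle inhibitor p21, a gene reported to be repressed by CtBP, read 1273, 1210 and 1277 on the vector arrays, 1616, 1668 and 1946 on the RAI2 arrays, and 1592, 1265 and 1482 on the RAI2-4A arrays. The RAI2 arrays were above all others, by 0.48 from vector (SE 0.12, limma, adjusted p = 0.152) and 0.28 from RAI2-4A (SE 0.12). RAI2-4A differed from vector by 0.20 (95% interval -0.05 to 0.46). With the 3 arrays that stood apart removed, CDKN1A differed by 0.52 between RAI2 and vector, by 0.31 between RAI2-4A and vector (95% interval 0.04 to 0.58) and by 0.21 between RAI2 and RAI2-4A (95% interval -0.06 to 0.48). With array weights CDKN1A passed between RAI2 and vector (limma, adjusted p = 0.0281). PERP, a CtBP target in mouse cells that acts in desmosomes, differed by 0.10 for RAI2 and 0.08 for RAI2-4A.

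Of 12 genes listed as CtBP corepressors or CtBP-repressed genes outside the family, 9 were tested and 0 passed. The medians, which include CTBP1, CTBP2 and TIAM1, were 0.10 for RAI2 against vector, 0.05 for RAI2-4A against vector and 0.21 for RAI2 against RAI2-4A. CTBP1 and CTBP2 differed by -0.10 and 0.01 between RAI2 and vector. IGFBP3, a binding protein for insulin-like growth factors, read 604 to 739 in vector, 852 to 1020 in RAI2 and 590 to 726 in RAI2-4A cells on its brighter probe, so that only RAI2 cells stood apart, by 0.42 from vector (95% interval 0.15 to 0.69) and by 0.50 from RAI2-4A (SE 0.13, limma, adjusted p = 0.205). Its second probe differed by 0.63 and 0.55 in these comparisons. In a fit of RAI2 and RAI2-4A alone, with the replicate number as a block, IGFBP3 passed (limma, adjusted p = 0.0317). CDKN1C, the inhibitor p57, differed by 0.40 between RAI2 and vector (95% interval 0.12 to 0.67), and the keratin gene KRT8 by 0.26. The RAI2 arrays of CDKN1C also lay above all RAI2-4A arrays, by 0.21 (95% interval -0.07 to 0.48). CDH1, also in this list, did not read higher in RAI2 than in vector cells. TIAM1 was listed too, but that CtBP represses it is not established here, so nothing is read from its direction. CDH1 differed by 0.00 (95% interval -0.25 to 0.26) and TIAM1 by -0.04 (95% interval -0.34 to 0.26), both near background.

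**Figure D4:**
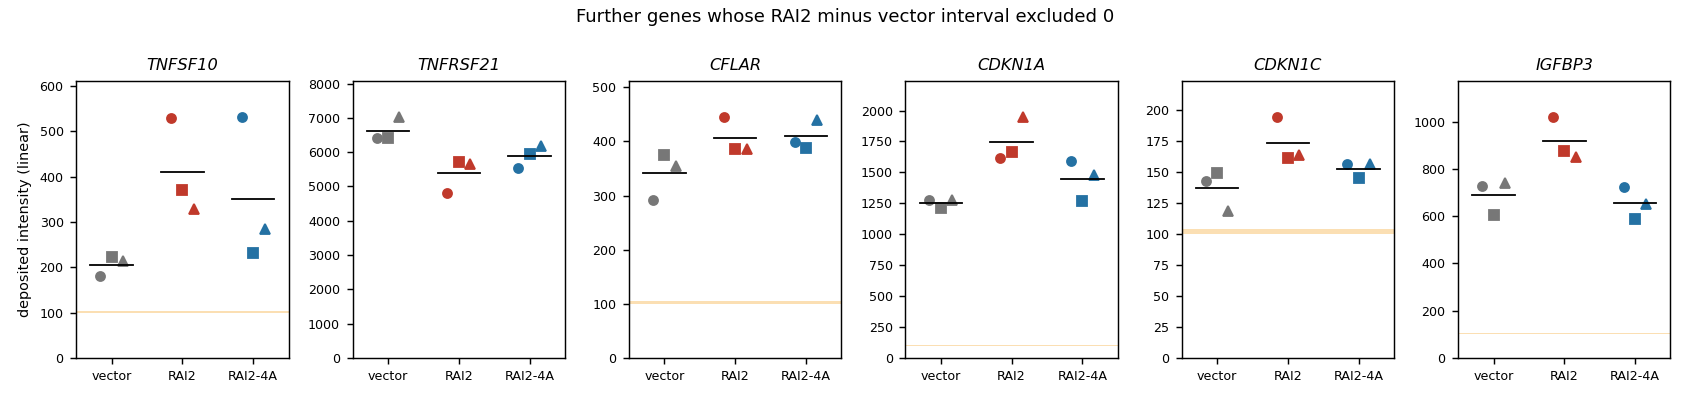
Deposited intensity (linear axes from 0) of 6 further genes whose 95% interval for RAI2 minus vector left out 0; circles, squares and triangles are replicates 1, 2 and 3, bars are means of 3 arrays, and the orange band is the background threshold. TNFSF10, CFLAR and TNFRSF21 differ from vector in the same direction in both RAI2 forms without overlap. For CDKN1A, CDKN1C and IGFBP3 (852 to 1020) all RAI2 arrays lie above all arrays of the other groups.

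**Figure D5:**
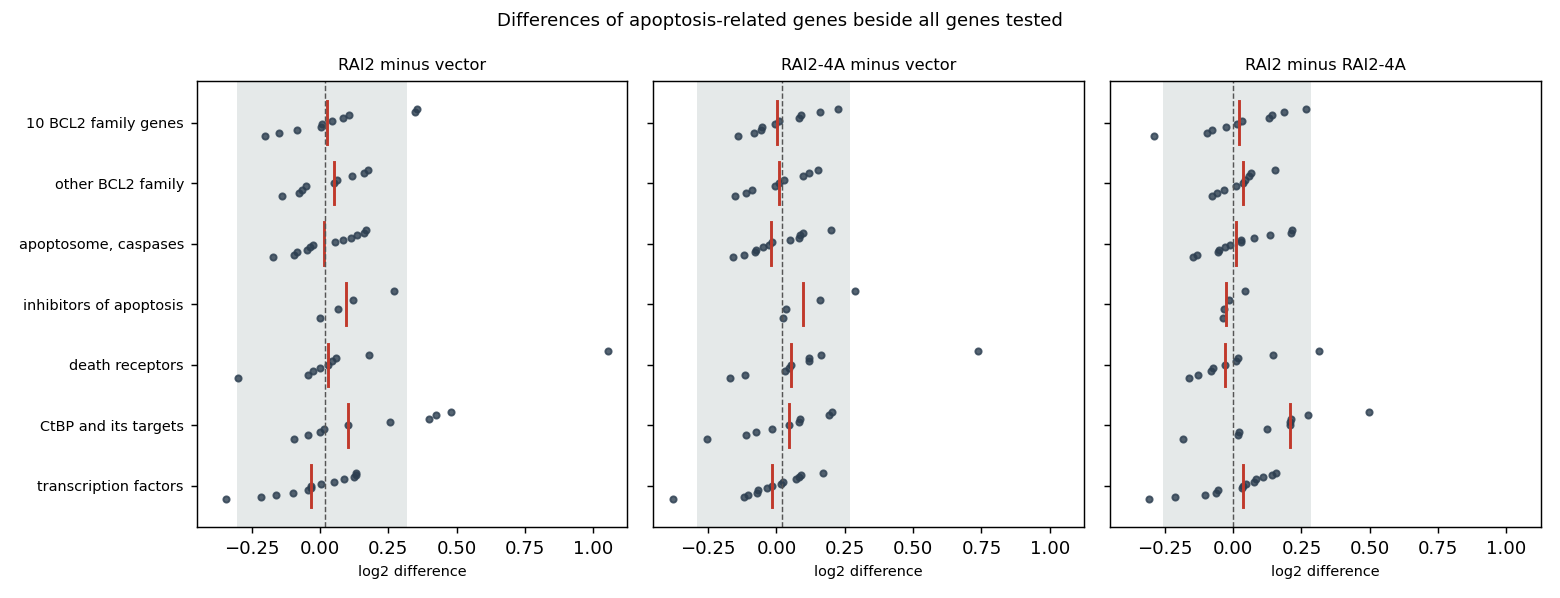
Log2 differences of the 10 BCL2 family genes and of the tested genes of 6 further lists in the 3 comparisons; each point is a gene, red ticks are list medians, the dashed line is the median of all 12437 genes and the grey band holds the middle 95% of them (-0.30 to 0.32 for RAI2 minus vector). Most points lie inside the band; PMAIP1, BIK, CDKN1A, CDKN1C, IGFBP3 and TNFSF10 lie to its right for RAI2 minus vector (BIK as fitted, against vector arrays below background), and RELA lies to its left through vector replicate 1 alone.

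Markers of other cells were mostly near or below background. Of 5 packaging cell markers, LIN28B, PAX2 and NEFM did not reach the detection filter, NEFL was above background on 4 arrays, and L1CAM, an adhesion protein, was higher in RAI2 cells, at 125 to 131 against 86.4 to 102 in vector, on a probe above background on 0 vector arrays (limma, adjusted p = 0.0465, and 0.176 without the 3 arrays that stood apart). That probe had reached the detection filter only through RAI2 and RAI2-4A arrays, so nothing is read from its adjusted p. The other L1CAM probe differed by -0.07. The summed intensity of L1CAM and NEFL was 183 to 208 in vector, 224 to 245 in RAI2 and 186 to 206 in RAI2-4A cells. The sum was higher in RAI2 than in vector cells through the same L1CAM probe, while NEFL differed by 0.07 with overlapping arrays. Nothing is therefore read from the sum either. In RAI2-4A cells the sum lay in the vector range. The part of packaging cells in the values of BIK, PMAIP1 and CDKN1A was not tested. Of 5 leukocyte markers 1 was tested (CD79A, above background on 3 arrays), summing to 99.9 to 105 in vector, 92.9 to 96 in RAI2 and 98.2 to 114 in RAI2-4A cells. Of 4 fibroblast markers COL1A1 and LUM were tested. LUM, a matrix proteoglycan, was above background on all 9 arrays at 121 to 179, and it read lower in RAI2 than in RAI2-4A cells by -0.34 (95% interval -0.68 to -0.01), overlapping and short of the threshold. LUM and BAK1 both read lower in that comparison, and the part of other cells in it was not tested. The sum of COL1A1 and LUM was 233 to 246 in vector, 216 to 277 in RAI2 and 241 to 284 in RAI2-4A cells.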

How the data were processed

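Illumina bead arrays measured RNA of 9 samples, 3 per group, with cRNA made from 500 ng of total RNA, per the labels' protocols. The authors deposited 1 intensity per probe and array on a linear scale for 47323 probes. Array medians lay between 98.5 and 99.5, so the values were already on a common scale. BeadStudio and limma are named in the submitters' processing notes, and how the values were scaled is not given in the sources used here. Another 18 columns (9 signals and 9 detection p) carry names that fit no one sample and stayed out.

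Probes with missing values (3) were dropped, and values were corrected with limma's normexp (saddle method, an offset of 50) and put on the log2 scale. A probe counted as above background 1.645 SD over the mode of an array's log2 intensities (density bandwidth 0.03). Probes above background on 3 of 9 arrays or more were kept (22399), and each gene was read by its brightest kept probe, giving 12437 genes. The probe table named 1 gene for 30113 probes, several for 8 and none here for 17202. Groups were compared with lmFit, contrasts.fit and eBayes (limma 3.58.1, R 4.3.3) on 9 arrays (6 residual degrees of freedom), two-sided, adjusted by Benjamini-Hochberg over all genes. On simulated data for RAI2 minus vector (12437 genes) recovery was 9.25% for a log2 change of 0.35, 37.6% for 0.5 and 92.7% for 1. The number of arrays limits precision.

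The 10 genes, the lists and the 3 arrays set aside were chosen with earlier results of these data known. Named genes were the 10 with their probes, RAI2, per list those past the threshold and the 2 brightest, PERP, CDKN1A, CTBP1 and CTBP2, and the 3 nearest in pattern to BIK and PMAIP1. Others were named after their values were seen. Each array was also left out for the further genes whose interval left out 0 and for RELA, LUM and L1CAM, which was chosen after seeing the data. Of the further lists, 1 entered the counts over all listed genes and is not reported here on its own. RAI2 and RAI2-4A arrays of the same number shared deviations (residual correlations of 0.44, 0.44 and 0.23), which pairs them by the data and not by the labels. Vector and RAI2 arrays of the same number gave -0.25, -0.29 and 0.20. Slide was not fitted as a block, as none is given in the sources used here.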

Additional observations from a re-analysis of the deposited data

How the results depend on the processing

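None of the 10 genes passed in any comparison under any of the alternatives run, which changed the background, scaling, detection filter, choice of probe, variance estimate, array weights, the groups fitted, a replicate block and the arrays included (679 values, lowest adjusted p in limma 0.216, for BIK with the background at the mode). Without 1 array at a time the count stayed at 0 in each comparison. The sign of the fitted difference changed in 49 of these values, spread over 16 of 30 gene and comparison pairs, none of which had an interval without 0 in the fit reported. For the other apoptosis genes the count went from 0 to 1 between RAI2 and vector with array weights (1, CDKN1A) and with RAI2 and vector fitted alone (1, TNFSF10). Leaving out 1 array gave 0 to 1 (TNFSF10, without RAI2-4A replicate 1). It went from 0 to 1 (IGFBP3) between RAI2 and RAI2-4A with the replicate block over those groups alone, an alternative added after seeing the data. The replicate block over all 3 groups changed no call of these genes, with a lowest adjusted p of 0.639 among the 10 for RAI2 minus vector. Over all genes, 52 passed between RAI2 and vector, with 21 to 88 under the alternatives. Between RAI2-4A and vector 11 passed, with 5 to 25. Between RAI2 and RAI2-4A 47 passed, with 25 to 98. The stricter detection filter left 7 of the 10 genes. The simulated recovery of 9.25% at 0.35 log2 units bears on PMAIP1, whose difference had that size: a miss there does not show the absence of a change. BIK, BMF, BBC3 and BCL2L11 lay so near background that their size depends on how it is corrected (fitted BIK values against vector ran from 0.28 with no background correction to 0.79 with the background at the mode). The slide block was not run.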
